A study of Drosophila melanogaster with 4 samples.

Results

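Ecdysone, the steroid hormone of insects, acts through a pair of nuclear receptors. EcR binds the active hormone and usp, the fly counterpart of the vertebrate retinoid X receptors, is its partner on DNA. The bound pair switches on a first layer of transcription factors, such as Eip74EF and Eip75B, and further receptors such as Eip78C, Hr4, Hr39 and ftz-f1 shape the timing and the tissue pattern of later responses. In the fly ovary the hormone is made by the egg chambers themselves, and the pathway is known to be needed for germline stem cells, for passage of egg chambers through mid-oogenesis and for ovulation.

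The genes described here are 10 members of this cascade, found by gene name in a table of 17475 genes: EcR, usp, Eip74EF, Eip75B, Eip78C, ftz-f1, Hr39, Hr4, ImpE1 and ImpE2. All 10 were found. RNA was sequenced from ovaries of 7-day-old adult Drosophila melanogaster in 4 libraries. Control 1 and control 2 came from w1118, a white-eyed laboratory strain, and wh7 1 and wh7 2 from the wh7 genotype, a mutation of wuho, with w1118 given as the strain background of both groups. Nothing in the labels says that libraries of a group came from separate batches of animals, and the p-values therefore cover just the spread between these libraries, which may be technical. How the wh7 allele was made is not given in the labels, and their description fields name a different experiment, RNA interference against tkv. The mutated gene wuho was therefore checked, at 24.7 and 25.4 FPKM in control ovaries and 0.832 and 0.646 FPKM in wh7 (limma adjusted p = 0.00245), although the authors' deposited table gave it a q of 0.302.

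Levels are FPKM, reads scaled to transcript length and library size, and can be compared between genes because they are per length. A transcript of 1 kb had about 19 to 20.2 reads for each FPKM. Changes were tested with limma on log2(FPKM + 1), where changes of low genes come out too small, in the 8580 genes that reached 1 FPKM in 2 or more libraries, with p-values adjusted over all of them and a threshold of 0.05. Of the members, 7 were tested, and 0 of these passed the filter through wh7 alone. Eip78C, ImpE1 and ImpE2 were under 1 FPKM in every library and were not tested. An exact permutation test of a single gene with 2 libraries against 2 cannot go below p = 0.333, so each adjusted p rests on a spread shared across genes.

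Eip75B was the member with the clear difference. It was 3.27-fold higher in wh7 ovaries than in control ovaries, usp was 1.41-fold lower, and the other 5 tested members did not pass the threshold. These 2 calls among 7 members (1 higher and 1 lower) stand beside a background in which 39.7% of all tested genes were called, 21.2% higher and 18.4% lower. The groups did not overlap in 5 of the 7 members, against 77% of tested genes. The median change of the 7 members was -0.10 and that of all tested genes -0.04 on the log2(FPKM + 1) scale. The counts are therefore near the background, and the data on single members carry the description.

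**Figure D1:**
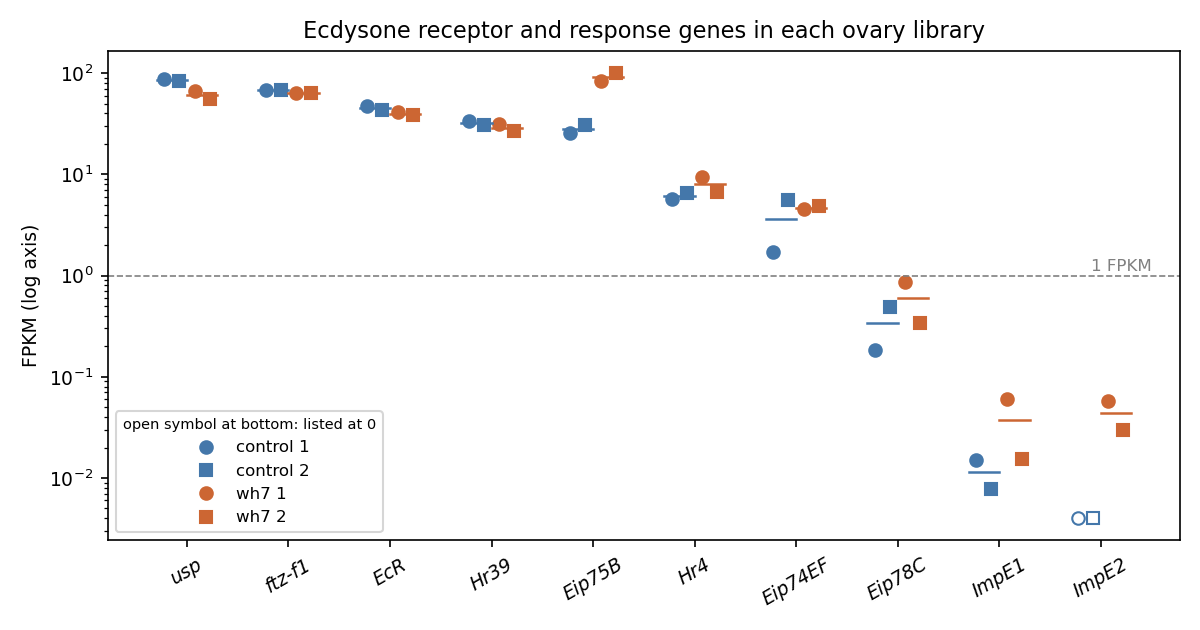
FPKM of the 10 members in each library on a log axis, ordered by control mean; short lines are group means, circles are replicate 1 and squares replicate 2, and the dashed line marks the filter of 1 FPKM. Eip75B moves from 25.9 and 30.5 FPKM in the controls to 84.4 and 100.4 in wh7, while usp, ftz-f1, EcR and Hr39 stay between 26.6 and 87.4 in every library.

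The receptor pair itself was well expressed. EcR (FBgn0000546; BDGP6, 2R from 6087873 to 6169087, minus strand, 6 annotated transcripts) was at 47.1 and 43.0 FPKM in control ovaries and 41.1 and 38.2 FPKM in wh7. Both wh7 libraries lay below both controls, and wh7 1 was closer to control 2 than the controls were to each other. The change was -0.18 ± 0.0956 (SE) with a 95% interval of -0.43 to 0.072 and did not pass (limma adjusted p = 0.193). The protein isoforms of EcR, which differ in their amino-terminal parts and have different roles, are summed in this value and were not analysed separately.

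The partner gene usp (FBgn0003964; X, 2038798 to 2042311, minus strand) was at 87.4 and 84.3 FPKM in control ovaries and 66.7 and 55.1 FPKM in wh7. The groups did not overlap, and wh7 libraries differed more from each other than the controls did. It fell by 0.50 on the log2 scale (SE 0.114, 95% interval -0.79 to -0.20; limma adjusted p = 0.0303). The call was lost without control 1 (adjusted p = 0.153), without control 2 (0.0964), without wh7 2 (0.0852), with no filter (0.131), after quantile normalization (0.0573), with equal FPKM sums (0.0504) and with no mean-variance trend (0.0524), although usp was lower in wh7 in every one of these fits. The authors' deposited table gave usp a q of 0.815.

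The usp locus carries a limit of its own. The deposited locus runs from 2010860 to 2061915 and merges usp with 8 further genes, whereas the annotated gene spans 3514 bases. Its exons share 265 bases with Actn, an actin-crosslinking protein gene on the same strand, and 196 bases with CG4313 on the opposite strand. Actn was at 67.0 and 65.7 FPKM in control ovaries and 62.7 and 63.7 FPKM in wh7, and CG4313 at 5.73 and 5.44 against 7.52 and 13.8 FPKM. Of the merged genes without shared exon bases, east fell from 88.2 and 77.7 to 55.2 and 50.1 FPKM. Higher in both wh7 libraries than in both controls were moody, Sik2, CG4325 and CR44896, and mir-4954 was listed at 0 throughout. These are named as locus neighbours, and their part in the level of usp was not tested. The labels do not say how reads in the shared bases were divided or if strand was used. Within each library the level of usp was 1.86 and 1.96 times that of EcR in the controls and 1.62 and 1.44 times in wh7.

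Among the early response genes, Eip75B (FBgn0000568; 3L, 17950953 to 18064696, minus strand) encodes a heme-binding nuclear receptor related to the vertebrate REV-ERB receptors, which represses the activity of Hr46 and is known to influence whether an egg chamber passes mid-oogenesis or dies. It was at 25.9 and 30.5 FPKM in control ovaries and 84.4 and 100.4 FPKM in wh7. Each wh7 library was more than double each control, and replicates of a group lay within 1.19-fold of each other. The mean rose 3.27-fold, from 28.2 ± 3.27 to 92.4 ± 11.3 FPKM (SD, n = 2), a change of 1.68 ± 0.133 (SE) with a 95% interval of 1.33 to 2.02 (limma adjusted p = 0.00516).

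The call of Eip75B held in all 15 alternative fits, with changes of 1.55 to 1.80 and adjusted p of 0.00133 to 0.0458. The authors' deposited table gave Eip75B a log2 ratio of 1.71 and a q of 8.70e-04. By size of change it ranked 641 among the 1820 genes called higher. Its 7 annotated transcripts start at 7 different positions and encode isoforms that differ in their amino-terminal parts. The FPKM sums over them, so the isoform behind the rise is not resolved. In RNA of whole ovaries, more cells of a type and more RNA per cell cannot be told apart. Summed follicle cell markers were 4.42-fold higher in wh7 beside this rise, with single markers from 1.26-fold to 15.65-fold. No other annotated gene shares exon bases with Eip75B, and the 5 genes that share its deposited locus were each under 0.3 FPKM in every library.

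Eip74EF, an ETS-domain transcription factor gene of the first response layer, was low and uneven. It was at 1.72 and 5.57 FPKM in control ovaries and 4.51 and 4.84 FPKM in wh7. Both wh7 libraries fell between the controls, which differed 3.24-fold from each other. The change of 0.43 ± 0.444 (SE) had a 95% interval of -0.74 to 1.59, so neither a clear fall nor a rise could be told from no change (limma adjusted p = 0.474). The sign was not stable: without control 1 the change was -0.21, without control 2 it was 1.06 (limma adjusted p = 0.0643), and after quantile normalization of all 4 libraries it was -0.54.

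Eip78C, a nuclear receptor gene related to Eip75B that is known to act in the ovarian niche, was low, under 1 FPKM in every library. It was at 0.183 and 0.491 FPKM in control ovaries and 0.855 and 0.337 FPKM in wh7, and the groups overlapped. For the annotated transcript lengths these values stand for about 13.1 to 87.2 reads per library. Replicates differed 2.69-fold in the controls and 2.54-fold in wh7. The gap between the group means was smaller than the gap within wh7, and no difference could be told from the spread.

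**Figure D2:**
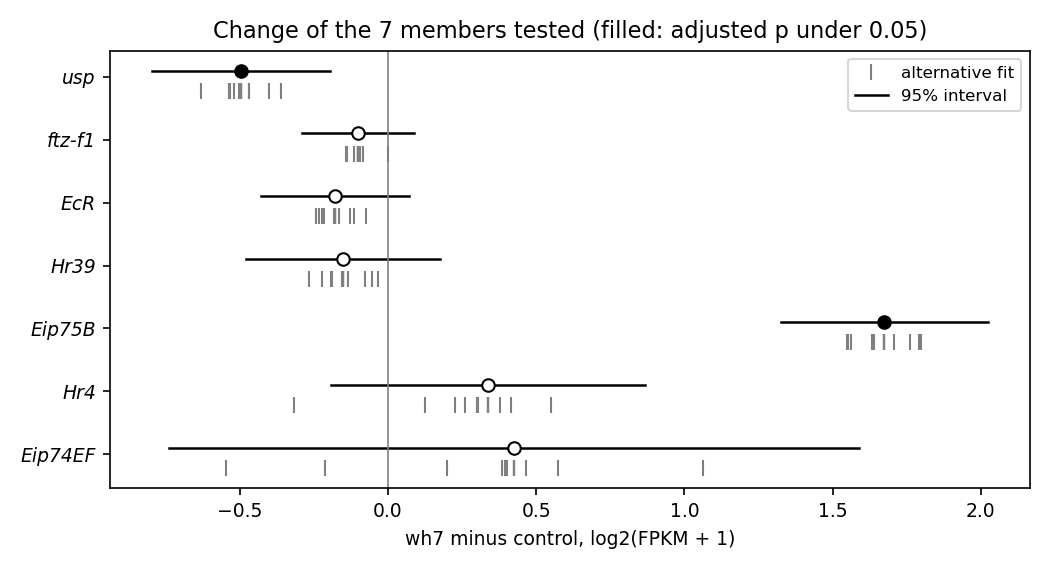
Change from control to wh7 of the 7 tested members on the log2(FPKM + 1) scale, with the 95% interval of the limma fit; grey ticks below each interval are the alternative fits, and filled points passed the threshold. Eip75B (1.68) stands apart from zero in all fits, usp (-0.50) lies below zero, and ticks of Eip74EF and Hr4 lie on both sides of zero.

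None of the 3 tested receptors of the later layer passed the threshold (limma, 0 of 3 also at an unadjusted p under 0.05). Over all tested genes 39.7% were called, and with 3 genes no result about the layer is read from this count. The gene ftz-f1 (FBgn0001078; 3L, 18750607 to 18801309) encodes a receptor that gives tissues competence to respond to the next hormone pulse, with an isoform loaded into the egg, where it works with the pair-rule protein Ftz. It was at 68.4 and 68.2 FPKM in control ovaries and 64.4 and 63.0 FPKM in wh7. The wh7 libraries lay below the controls, and replicates differed by at most 1.02-fold. The change was -0.10 ± 0.0719 (SE) with a 95% interval of -0.29 to 0.089 (limma adjusted p = 0.312). Its exons share 2521 bases with the non-coding gene CR45939 on the same strand, which was at 28.5 and 31.3 FPKM in control ovaries and 18.2 and 26.7 FPKM in wh7.

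Hr39, the close relative of ftz-f1 known for its part in the secretory cells of the spermatheca and in ovulation, was at 33.9 and 30.6 FPKM in control ovaries and 31.4 and 26.6 FPKM in wh7. The groups overlapped. The change was -0.15 ± 0.125 (SE), with a 95% interval of -0.48 to 0.18 (limma adjusted p = 0.373). Within a library Hr39 was at 0.496 and 0.449 times the level of ftz-f1 in the controls and at 0.489 and 0.423 times in wh7. Its exons share 61 bases with mir-9374 on the same strand. Spermatheca markers were summed beside it, at 8.54 and 11.1 FPKM in control ovaries and 42.1 and 66.2 FPKM in wh7 over 4 genes, with Send2 listed at 0 in both controls. Most of this sum came from CG18067 and peb. In wh7 the larger was CG18067, at 2.77 and 2.41 FPKM in control ovaries and 23.9 and 29.9 FPKM in wh7. The gene peb, which also marks follicle cells, was at 5.70 and 8.69 FPKM in control ovaries and 17.1 and 23.1 FPKM in wh7. Send1, at 0.0656 and 0 FPKM in control ovaries, was uneven in wh7, at 0.455 and 10.5 FPKM. The part of spermatheca tissue in the level of Hr39 was not tested.

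Hr4, a receptor gene that limits the early response and helps to time pupation in larvae, was low. It was at 5.73 and 6.50 FPKM in control ovaries and 9.40 and 6.74 FPKM in wh7. Both wh7 libraries lay above both controls, wh7 2 only slightly. The change was 0.34 ± 0.202 (SE), with a 95% interval of -0.19 to 0.87 (limma adjusted p = 0.236), and its sign reversed to -0.32 after quantile normalization. Hr4 ends on chromosome X at 2007956, where 46 exon bases overlap CG4406 (PIG-K in the newer annotation) on the opposite strand.

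The ecdysone-inducible genes ImpE1 and ImpE2, first found in imaginal discs, were at or near zero. ImpE1, which encodes a protein with low-density lipoprotein receptor repeats, was at 0.0151 and 0.00782 FPKM in control ovaries and 0.0599 and 0.0155 FPKM in wh7. Depending on the annotated transcript, these values stand for between 0.136 and 7.13 reads. ImpE2 was listed at 0 in both controls and at 0.0581 and 0.0300 FPKM in wh7, which for its single transcript of 1708 bases is about 1.94 and 0.985 reads. At this depth no difference of either gene between genotypes can be read, whatever the order of the values.

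The order of the members by level changed between genotypes mainly through Eip75B. In the controls it ran usp, ftz-f1, EcR, Hr39, Eip75B, Hr4, Eip74EF. The step from Hr39 (30.6 to 33.9 FPKM) to Eip75B (25.9 to 30.5 FPKM) is within the spread of the replicates, and Hr4 and Eip74EF are likewise close in control 2. In wh7 Eip75B came first, usp (55.1 to 66.7 FPKM) and ftz-f1 (63.0 to 64.4 FPKM) overlapped, and EcR, Hr39, Hr4 and Eip74EF followed in separate ranges. Relative to EcR in the same library, Eip75B stood at 0.551 and 0.710 in the controls and at 2.05 and 2.63 in wh7.

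The same shift was seen against the whole receptor family. Of 21 nuclear receptor genes, 11 passed the filter, 6 of them members. Eip75B was in place 8 by control mean and in place 1 by wh7 mean, whereas usp moved from place 1 to place 3. In wh7 the range of usp overlapped those of ftz-f1 and Hnf4. In control 2 Eip75B (30.5 FPKM) was close to Hr39 (30.6 FPKM) and Hnf4 (31.2 FPKM). Place 3 of usp and place 8 of Eip75B are therefore not resolved by these libraries. Of the 5 tested receptors that are not members, Hnf4, known for fat and sugar metabolism, rose from 33.4 and 31.2 to 47.5 and 57.1 FPKM (change 0.67 ± 0.121, SE; limma adjusted p = 0.0179). This call was lost without control 1, control 2 or wh7 2 and with no filter (adjusted p up to 0.0919). Hr96, a receptor of cholesterol and foreign compounds, fell from 39.6 and 34.4 to 27.7 and 26.0 FPKM (limma adjusted p = 0.0361), and that call was lost without any 1 library and in 5 further alternatives (adjusted p up to 0.187). Hr46, the receptor that Eip75B opposes, was at 1.67 and 3.43 FPKM in control ovaries and 2.84 and 4.16 FPKM in wh7 and did not pass (limma adjusted p = 0.387).

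**Figure D3:**
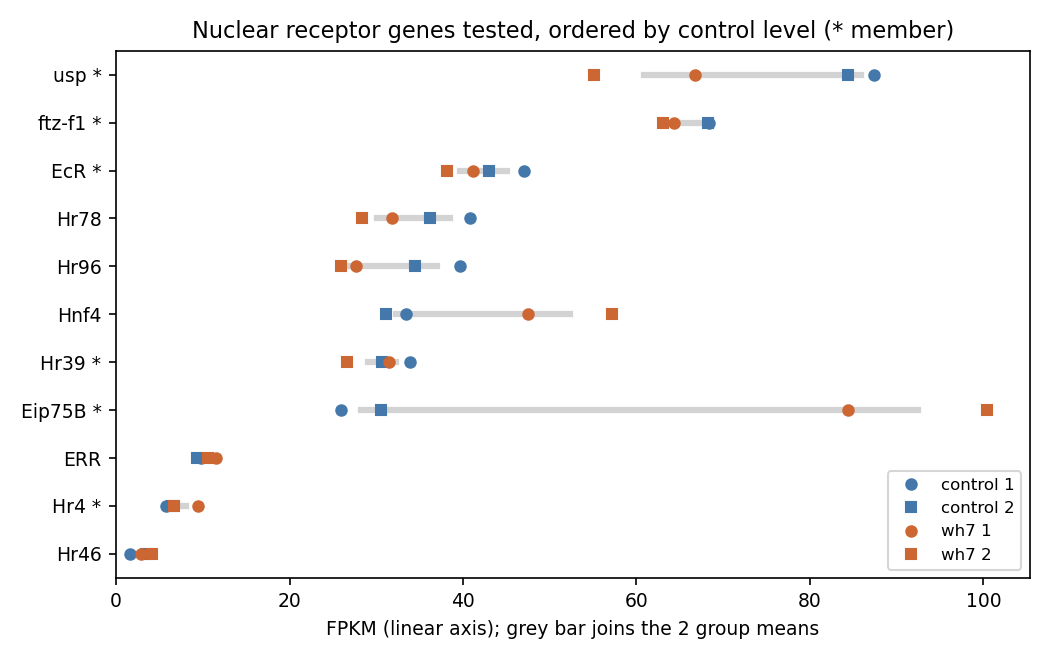
FPKM of the 11 tested nuclear receptor genes in each library on a linear axis, ordered by control mean from the top, with members marked by a star and a grey bar joining the group means. Eip75B moves from 28.2 to 92.4 FPKM, from place 8 to place 1, and Hnf4 from 32.3 to 52.3 FPKM.

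Over 3 lists of further ecdysone pathway genes, 17 of 39 tested genes rose and 6 fell, beside 21.2% higher and 18.4% lower of all tested genes. Of the 17 that rose, 4 entered the test only through wh7, as did 683 of the 1820 genes called higher. Of 16 tested other ecdysone response genes, 9 rose, 1 fell and 6 did not pass, although 3 of the 9 were under 1 FPKM in both controls and entered the test only through wh7. The median change was 1.21 with those 3 included, which raise it, against -0.04 over all tested genes. ImpL3, the lactate dehydrogenase gene and 1 of those 3, rose from 0.236 and 0.815 to 10.2 and 28.1 FPKM (limma adjusted p = 0.0112; call lost without control 1 and with no filter, adjusted p up to 0.0938). vri, a repressor of the circadian clock that also answers to ecdysone, rose from 4.83 and 4.17 to 24.0 and 26.2 FPKM (limma adjusted p = 0.00368). Eip63F-1, which encodes a calcium-binding protein, rose from 1.18 and 1.23 to 8.34 and 11.1 FPKM (limma adjusted p = 0.00545; call lost with no filter, 0.0546).

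ImpL2, which encodes a secreted inhibitor of insulin signalling, rose from 18.9 and 50.4 to 122.6 and 171.4 FPKM (limma adjusted p = 0.0269; call lost without wh7 1 or wh7 2 and with no filter, adjusted p up to 0.161). The gene that fell was E23, which encodes an ABC transporter that dampens the ecdysone response, at 59.7 and 62.0 FPKM in control ovaries and 45.1 and 37.98 FPKM in wh7 (limma adjusted p = 0.0228); it was singled out after its values were seen. Genes named for their induction by ecdysone did not move as one: Eip71CD, Eip55E, Eip63E and ImpE3 were tested and did not pass, and ImpL1, listed at 0 in both controls and at 0.183 and 0.0946 FPKM in wh7, was near zero like ImpE1 and ImpE2. Eip93F, of the same group, rose from 1.79 and 2.35 to 7.55 and 8.01 FPKM (limma adjusted p = 0.00781). Eip93F and the 5 genes before it are named for that group, after their values were seen.

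Of 10 tested genes in the list of ecdysteroid synthesis and turnover, 6 rose and the other 4 did not pass, beside 21.2% of all tested genes called higher. The median change was 0.73, with 1 gene that entered the test only through wh7 included. A synthesis gene outside this list, dare, was called lower and is counted with the transport and cofactor genes below. One riser, shd, the last hydroxylase of the pathway, was at 0.422 and 0.575 FPKM in control ovaries and 1.78 and 1.49 FPKM in wh7 and entered the test only through wh7. The riser with the largest change was Cyp18a1, a cytochrome P450 that inactivates the hormone, from 9.81 and 18.01 to 58.6 and 71.6 FPKM (limma adjusted p = 0.00993; call lost without wh7 1 or wh7 2 and with no filter, adjusted p up to 0.0859). phm, a hydroxylase of the synthesis pathway, rose from 1.48 and 1.68 to 7.87 and 7.54 FPKM (limma adjusted p = 0.00556; call lost with no filter, 0.0548). nvd, which acts on cholesterol at the start of synthesis, rose from 0.639 and 1.47 to 3.68 and 6.04 FPKM (limma adjusted p = 0.0248), a call lost without any 1 library, after quantile normalization and with no filter (adjusted p up to 0.245). Npc1a, which moves cholesterol within cells, rose from 14.0 and 18.8 to 36.91 and 36.85 FPKM (limma adjusted p = 0.0112; call lost without wh7 1 or wh7 2 and with no filter).

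The partners of the receptor pair went in both directions. Of 13 tested genes listed for ecdysone transport and receptor cofactors, 2 rose (15.4%), 5 fell (38.5%) and 6 did not pass, with a median change of -0.33. Among the 5 is dare, which encodes a reductase of steroid synthesis and is neither a transporter nor a cofactor. It fell from 19.7 and 18.8 to 13.4 and 14.0 FPKM (limma adjusted p = 0.0341) and is named after its values were seen. Over all tested genes 21.2% were called higher and 18.4% lower. Oatp74D, the importer that carries ecdysone into cells, rose from 2.25 and 3.37 to 8.93 and 12.0 FPKM (limma adjusted p = 0.0123; call lost without control 1 or wh7 2 and with no filter). tai, a coactivator of the receptor, rose from 8.96 and 12.0 to 18.7 and 21.0 FPKM (limma adjusted p = 0.0230; call lost without control 1, wh7 1 or wh7 2 and with no filter). Smr, a corepressor of the unbound receptor, fell from 58.7 and 61.4 to 41.6 and 34.4 FPKM (limma adjusted p = 0.0181; a call lost without control 1, without control 2 or without wh7 2, and with no filter). brm, the chromatin-remodelling ATPase gene, fell from 79.4 and 63.4 to 49.0 and 47.7 FPKM (limma adjusted p = 0.0317), and its call was lost in 7 of 15 alternatives.

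Among 4 tested ETS factor genes other than Eip74EF, 2 rose and 1 fell, beside 21.2% higher and 18.4% lower of all tested genes. Ets21C, a stress-responsive factor, rose from 0.477 and 0.329 to 2.80 and 10.7 FPKM (limma adjusted p = 0.0356), entering the test only through wh7, and pnt, the effector of epidermal growth factor signalling, rose from 8.55 and 9.28 to 13.7 and 15.3 FPKM (limma adjusted p = 0.0250). Ets97D fell from 40.1 and 37.3 to 31.3 and 27.8 FPKM (limma adjusted p = 0.0473). The calls of Ets21C, pnt and Ets97D were lost in 5, 7 and 11 of their alternatives.

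**Figure D4:**
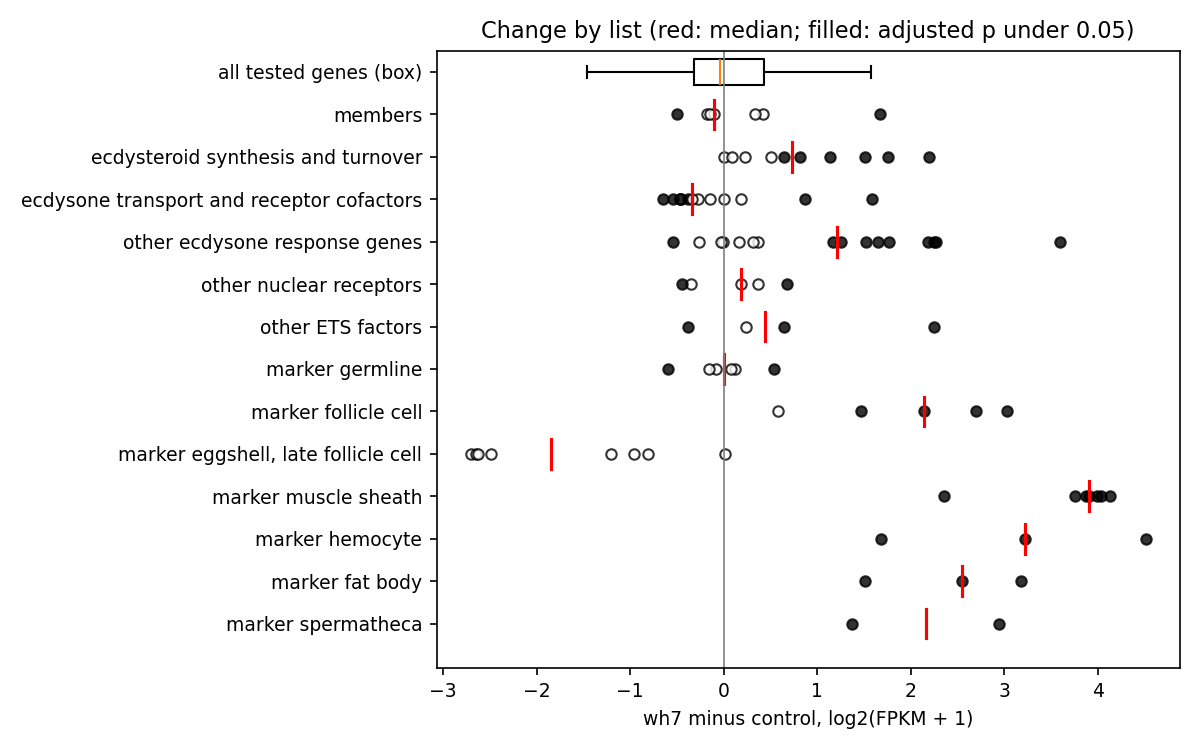
Change from control to wh7 of each tested gene on the log2(FPKM + 1) scale by list, with list medians in red and calls filled; the box shows the middle part and the whiskers the range of all tested genes without outlying values. Genes of synthesis and response lie mostly to the right (medians 0.73 and 1.21), the members spread around zero (median -0.10), and muscle sheath markers are farthest right (median 3.91). The medians of synthesis and response include 1 and 3 genes that entered the test only through wh7.

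Several cell type markers moved in the same libraries, beside 21.2% higher and 18.4% lower of all tested genes. Of 5 tested follicle cell markers 4 rose (Fas3 and tj among them), and the summed level of all 6 was 43.5 and 69.0 FPKM in control ovaries and 221.6 and 275.4 FPKM in wh7, a 4.42-fold difference beside the 3.27-fold rise of Eip75B. The difference depended on the marker, from 1.26-fold (slbo, groups overlapping, not tested) to 15.65-fold (cas), with Fas3 at 6.74-fold and tj at 2.775-fold. The genes slbo and cas are named for this range, after their values were seen. Muscle sheath markers rose in 7 of 7 genes, led in level by TpnC73F and up, with sums of 51.2 and 66.1 FPKM against 717 and 1237 FPKM. Hemocyte markers, led by crq and Pxn, summed to 15.2 and 8.39 FPKM against 139 and 179 FPKM, with NimC1 and He listed at 0 in both controls, and 3 of 3 tested rose, among them Hml, which entered the test only through wh7. Fat body markers, led by Obp99a and Rfabg, summed to 7.21 and 8.23 FPKM against 62.1 and 57.6 FPKM, with Fbp1 listed at 0 in both controls, and 3 of 3 tested rose. Of these, Tsf1 entered the test only through wh7, and the call of Rfabg was lost in 7 of 15 alternatives. Both tested spermatheca markers, CG18067 and peb, rose; peb also marks follicle cells. Germline markers summed to 1282 and 1282 FPKM against 1105 and 1270 FPKM, with nos lower, aub higher and osk among the 4 that did not pass. The part of these cell types in the rise of Eip75B and of the further pathway genes was not tested.

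Eggshell genes, which mark late follicle cells, differed more within a genotype than between genotypes. The sum of 8 chorion and vitelline membrane genes, led by Vm34Ca and Cp38, was 4563 and 26900 FPKM in control ovaries and 13000 and 2788 FPKM in wh7. None of the 8 passed (limma, 0 of 8 also at an unadjusted p under 0.05). Cp38 passed only with a crossed replicate block (limma adjusted p = 0.0103), which was chosen after seeing the data. That block pairs control 2 with wh7 1, both high, so it takes out the swing between libraries, and no difference between genotypes is read from it. The authors' deposited table marks Cp15, Cp16 and Cp19 as lower in wh7, with q of 8.70e-04 to 0.0016. Control 2 and wh7 1 were high and control 1 and wh7 2 low. Eip75B did not follow that order, with control 2 above control 1 but wh7 2 above wh7 1, and neither did usp. Hr4 and Eip78C did, each higher in control 2 than in control 1 and higher in wh7 1 than in wh7 2, and the part of the eggshell swing in their levels was not tested. Eip74EF was low in control 1, as the eggshell genes were, but near equal in both wh7 libraries.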

How the data were processed

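The authors deposited one FPKM column for each library, named so in the header (0.0001 marks zero and was read as 0), and their own log2 ratio, p-value and q-value per gene, also deposited. Bowtie 0.12.2, bcl2fastq 2.0 and, with no role stated, mm8 and BDGP6 are listed per the submitters' processing notes; no source used here gives the tool behind the FPKM, its test or any use of strand. Libraries were made with a strand-specific kit for single-end sequencing, per the labels' protocols. Every library column was read (0 left out), and groups came from the source names. In a BDGP6 annotation 17171 of 17475 gene identifiers were found, 17132 on the same chromosome, and deposited starts, which count from 0, were raised by 1.

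Read counts were not used here, so limma 3.58.1 in R 4.3.3 was fitted across all genes to log2(FPKM + 1) with the spread modelled on the mean (prior degrees of freedom 2.69) and Benjamini-Hochberg adjustment; the script was tested on simulated data. The reads behind low values were estimated from genes with a single annotated transcript and are approximate, and reads are not independent molecules. The alternatives comprised 2 further pseudocounts, 3 filters, 3 scalings, no trend, the replicate number as a block and each library left out with the gene filter unchanged, 14 in all, and 1 added afterwards. The members and gene lists were chosen with earlier results of these data known. Named genes were the members, wuho, up to 4 called genes of each pathway list with the largest change, and the 2 markers of each list with the highest level; a gene outside this rule is said to be so or is an exon neighbour, a marker listed at 0, a gene tested only through wh7, aub, Hr46, Cp15, Cp16 or Cp19. Of 2 list entries no gene was matched.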

Additional observations from a re-analysis of the deposited data

How the results depend on the processing

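The call of Eip75B and the lack of a call for EcR, ftz-f1, Hr39, Hr4 and Eip74EF held in every alternative that tested them. The sign of Eip74EF reversed after quantile normalization (-0.54) and when control 1 was left out (-0.21; -0.21 to 1.06 over single libraries left out), and that of Hr4 after quantile normalization (-0.32). The cause was not tested. Of the 2 members called, 1 was called with no filter, after quantile normalization, with equal FPKM sums and with no trend, and 1 to 2 without a library; usp was the call lost. All genes called, 3403 as reported, were 1238 with no filter, where 17475 genes share the adjustment, and 611 to 2002 without a library, where a lone library is assumed to vary like the others. With equal FPKM sums 65.5% of calls were higher, against 53.5%. Other pathway and family genes called, 28 of 47 tested (20 higher, 8 lower), were 5 with no filter (0 lower), 18 after quantile normalization (14 higher, 4 lower) and 7 to 14 without a library. Lower calls fell to 2 with equal FPKM sums and 4 with no trend, each beside 20 higher, and to 0 without control 1 (7 higher) or wh7 2 (9 higher). Other receptors called, 2 as reported, were 1 with no filter, after quantile normalization, with equal FPKM sums, with no trend and with a crossed block, and 0 to 1 without a library (limma, with 1 to 3 at an unadjusted p under 0.05).

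The deviations of control 1 and wh7 1 from their group means were only weakly and negatively correlated (r = -0.165 over tested genes). The library numbers are therefore not shown to pair them. With the replicate block 3624 genes and 2 members were called. With the crossed pairing, chosen after seeing the data, 2729 genes and 2 members were called. Read depth limits ImpE1 and ImpE2, and the spread between replicates limits Eip78C.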
